A study of Mus musculus with 5 samples.

Results

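The genes described here encode the degradative lysosome: the vacuolar-type proton pump that acidifies it, the hydrolases and other lumenal proteins that work inside it, and the proteins of its limiting membrane. Members were the 45 genes of a fixed list of symbols, each matched to a row of the count table, which holds 53700 gene entries. They divide into 17 proton pump genes, 20 hydrolase and lumenal genes and 8 membrane protein genes. Each symbol had 1 row.

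Poly-A RNA-seq had been run on MutuDC, a line of mouse dendritic cells of the cDC1 type, which specialise in cross-presenting antigen. There were 5 groups of 1 library each. One had vehicle and counts as 0 h, and the others had Fanchinoline (the labels' spelling) for 2, 6, 12 or 24 h. The sources used here do not give its dose. The labels call the 0 h cells a vehicle control and the design text of the series calls them untreated. The design text also mentions triplicates, and whether each deposited column pools them is not stated. All groups are 1 cell line of unstated passage, and no vehicle library stood at 2, 6, 12 or 24 h, so the compound and the hours in culture cannot be told apart.

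Inside lysosomes, enzymes break down proteins, sugars and lipids at acid pH. The acid is kept by the vacuolar ATPase, a rotary motor in which the cytosolic V1 sector splits ATP and the membrane V0 sector carries protons. Many genes of this organelle carry the E-box CACGTG, often within a longer palindrome called the CLEAR element (GTCACGTGAC), in their promoters, where the transcription factors TFEB, TFE3 and MITF can bind. In dendritic cells the same proteases and pump serve antigen processing.

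The E-box was looked for in RefSeq promoter windows (GRCm38.p6, 250 bases before to 50 after each RefSeq start). A gene was counted if any of its windows held the motif, and 6 members had more than 1 window. The motif is its own reverse complement, so 1 search covers both strands, and the CLEAR element contains it. Windows were found for 38 of the 45 members, and 13 of these genes (34.2%) held at least 1 E-box, against 8.09% of 27025 genes. By class these were 4 of 12 pump genes, 7 of 18 hydrolase genes and 2 of 8 membrane protein genes. The CLEAR element stood in 1 of the 38, Cln3, against 0.37% of all genes. Cln3, Ctsa and Lgmn held their E-boxes, and Cln3 its CLEAR element, in a downstream window only. Their window further upstream held none. For Atp6v0e the window begins at 26676146 on chromosome 17, inside the gene, whose annotated start is 26663231. No window was matched for Atp6v1b2, Atp6v1c1, Atp6v1g1, Atp6v1h, Atp6v0a2, Ctsh and Ctsb.

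The 250 bases before the start are shown for Lamp1, the member with the most E-boxes (4), at chr8:13158911-13159160 on the plus strand, and for Atp6v1a, the pump gene highest over vehicle at 24 h, with 1 E-box, at chr16:44139260-44139509 on the minus strand. Capitals mark the E-box, and both run 5′ to 3′.
Lamp1: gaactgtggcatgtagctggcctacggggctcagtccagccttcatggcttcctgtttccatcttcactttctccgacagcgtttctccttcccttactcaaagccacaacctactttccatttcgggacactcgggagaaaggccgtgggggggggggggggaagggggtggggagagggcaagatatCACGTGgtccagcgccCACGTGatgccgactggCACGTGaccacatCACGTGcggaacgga
Atp6v1a: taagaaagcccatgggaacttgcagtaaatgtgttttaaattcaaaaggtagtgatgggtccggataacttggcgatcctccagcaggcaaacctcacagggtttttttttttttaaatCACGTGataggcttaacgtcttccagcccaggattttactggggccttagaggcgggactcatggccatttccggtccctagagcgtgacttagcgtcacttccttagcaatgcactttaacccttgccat

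Shorter windows of 30 bases show the E-box in members that differ in their course below: Atp6v0d1 (chr8:105566050-105566079, minus strand), which rose, Atp6v0e (chr17:26676387-26676416, plus strand) and Naglu (chr11:101070009-101070038, plus strand), for which no trend was called, and Cln3 (chr7:126583340-126583369, minus strand), whose flanking bases complete the CLEAR element.
Atp6v0d1: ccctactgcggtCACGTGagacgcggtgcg
Atp6v0e: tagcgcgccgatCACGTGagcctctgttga
Naglu: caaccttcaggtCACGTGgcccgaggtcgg
Cln3: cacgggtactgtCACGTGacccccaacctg

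The 13 windows held 20 E-boxes, of which 17 lay wholly before the start, 1 across it and 2 after it. The map of their positions shows 12 that begin within 100 bases before the start.

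**Figure D1:**
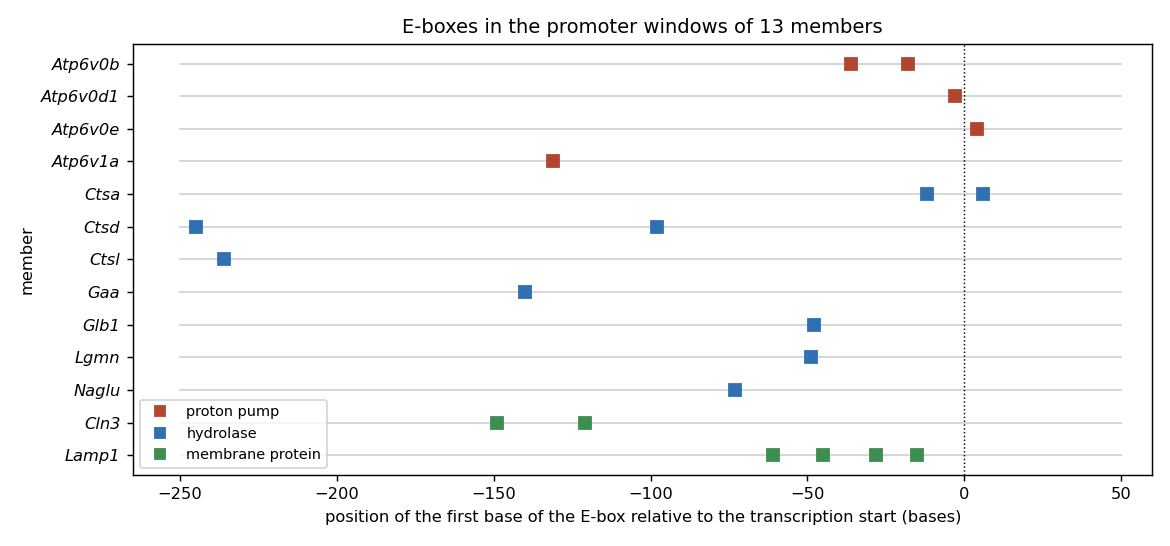
Position of each E-box (squares) in the promoter windows of the 13 members that hold one, in bases from the transcription start (dotted line), coloured by class. Lamp1 holds 4, Atp6v0b, Ctsa, Cln3 and Ctsd hold 2 each, and the other 8 genes hold 1.

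Total counts were 33568526 in the vehicle library and 37589066 to 42854511 in the treated ones. Levels are CPM (counts relative to the library's total, scaled with TMM factors), and ratios are log2 ratios between 2 libraries with a prior count of 2 and a 95% exact (Clopper-Pearson) interval. Intervals cover counting error only and not the spread between replicates. They can be too narrow even for counting error, since reads copied by PCR are not independent molecules. Against vehicle, the longest 20% of transcripts lay above the shortest 20% by a median log2 ratio of 0.61, 0.67, 0.72 and 0.78 at 2, 6, 12 and 24 h. Between the 24 h and 2 h libraries this difference was 0.15, and the 20% of genes highest in GC content stood at -0.36 (log2) relative to the 20% lowest. Values adjusted for length and GC content therefore stand beside the results. Of 12 cDC1 markers 11 had at least 10 CPM, and all 3 T cell and all 3 neutrophil markers were at 0 counts. Summed levels were 6726 to 9254 CPM for the cDC1 list and 137 to 187 CPM for the macrophage list, in which 4 of 7 markers had at least 1 CPM and Mertk was at 0.

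Members together took 1.70%, 1.86%, 1.77%, 1.75% and 1.88% of counts in the vehicle, 2, 6, 12 and 24 h libraries. Pump genes took 0.225%, 0.231%, 0.239%, 0.255% and 0.299% in the same order, and membrane protein genes 0.197%, 0.209%, 0.207%, 0.224% and 0.258%. Both shares were largest at 24 h. These are shares of unscaled totals, by which the median of all genes lay 0.10 (log2) above vehicle at 24 h, against -0.00 with TMM. The hydrolase and lumenal genes took 1.28%, 1.42%, 1.33%, 1.27% and 1.32%, with no such order, and most of this share was 1 gene. That gene, Psap, which encodes the precursor of the saposins that help enzymes reach glycolipids, alone took 0.858%, 0.997%, 0.917%, 0.861% and 0.856%. In bulk RNA a lower share from fewer cells of a type and from less RNA per cell cannot be told apart.

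Per kilobase of transcript, Psap stood highest of all members, at 3381 CPM per kb as a mean over the 5 libraries (3072 to 3780). Next came Grn, the progranulin gene, at 467 CPM per kb (450 to 481), and Lamp1, the major lysosomal membrane glycoprotein, at 397 (349 to 481). The ranges of Grn and Lamp1 overlapped, so their order is not fixed. Among pump genes Atp6v0b (232 CPM per kb, 219 to 243) and Atp6v0c (177, 157 to 206), both encoding proteolipids of the rotor ring, were highest, and Atp6v0a1 (9.76, 8.45 to 11.3) was lowest. Of the 41 members with at least 10 CPM in 1 or more libraries, the cysteine protease gene Ctsl was lowest at 3.36 CPM per kb (2.83 to 3.80). This level rests on its longest protein-coding transcript, 6168 bases, and would be higher for a shorter one, so its rank is not fixed.

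**Figure D2:**
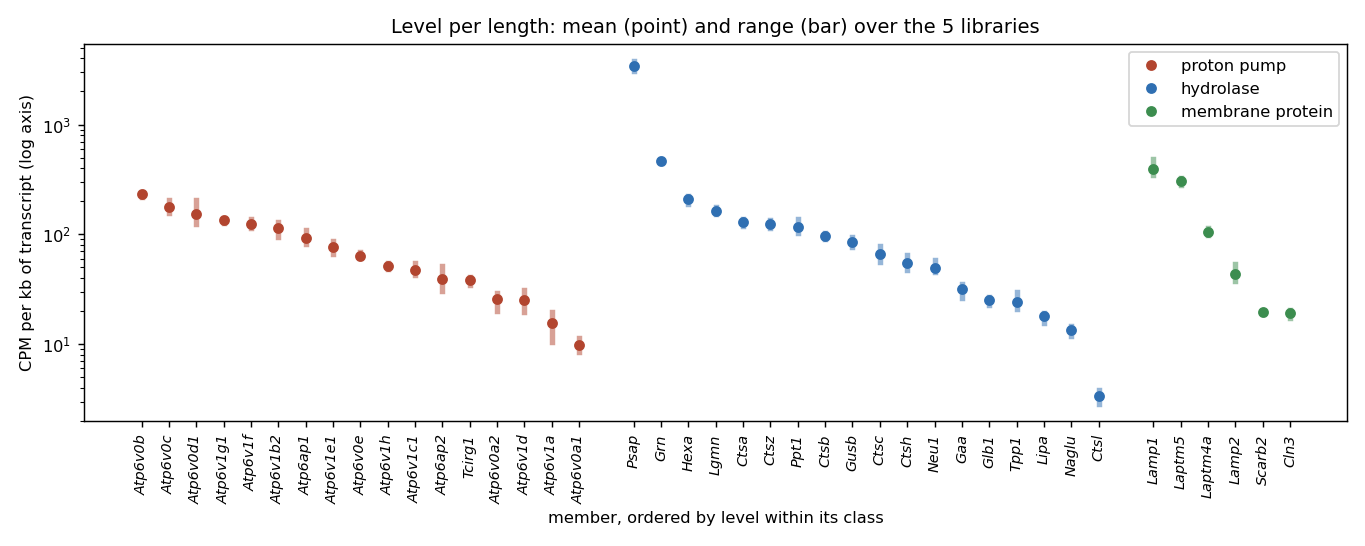
Level of the 41 members with at least 10 CPM, in CPM per kb of the longest protein-coding transcript on a log axis, ordered within each class. Points are means and bars the range over the 5 libraries, and Psap (3381) stands well above Grn (467), the next highest.

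Of 4 members under 10 CPM, Ctsd, the aspartic protease cathepsin D, had 44 counts in vehicle and 55, 67, 63 and 97 at 2, 6, 12 and 24 h (1.34, 1.47, 1.58, 1.67 and 2.27 CPM). Its exons overlap those of Gm49369 on the same strand, so how reads were divided between the 2 entries could set this level. Cd63, a tetraspanin of late endosomes, had 0 to 6 counts per library. Galc, the galactosylceramidase gene, had 0 counts in all 5 libraries, which allows up to 0.0703 to 0.0915 CPM (3 counts per library). Mfsd8, a membrane transporter family gene, lay at 3.93 to 5.48 CPM. These 4 genes entered no comparison of 2 libraries. Ctsd and Mfsd8 were in the trend tests below and were not called (43 members tested).

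No member of the 41 compared was 2-fold higher or lower than vehicle at any time, or between the 24 h and 2 h libraries. Called here means a log2 ratio of at least 1 in size with an interval that excludes 1-fold. Among all 8846 compared genes 0.904%, 1.57%, 2.33% and 2.86% were called higher than vehicle at 2, 6, 12 and 24 h, and 0.43%, 0.373%, 0.746% and 1.23% lower. For 24 h over 2 h these were 0.859% higher and 0.69% lower. At a lower limit of 1.5-fold, 0 members were higher at 2 h (7.2% of all genes), 1 at 6 h (9.73%) and 1 at 12 h (10.6%), against 3 at 24 h (12.2%). The gene at 6 and 12 h was Atp6v1a, joined at 24 h by Atp6ap2 and Atp6v0d1. None was 1.5-fold lower at any time (3.62%, 3.83%, 5.55% and 8.87% of all genes). The 3 members at 24 h were a smaller share of the 41 than 12.2%. Adjusted for length and GC content, 1 member was 1.5-fold higher at 2 h (Atp6ap2; 1.9% of all genes), 1 at 6 h (Atp6ap2, and no longer Atp6v1a; 3%) and 2 at 12 h (Atp6ap2 and Atp6v1a; 4.23%). At 24 h 5 were, with Atp6v0c and Atp6v1f added (5.3%), a larger share of the 41 than that of all genes, so the order of the shares turned with the adjustment.

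The differences from vehicle were small. The pump genes had median log2 ratios over vehicle of 0.05, 0.07, 0.21 and 0.29 at 2, 6, 12 and 24 h, where all compared genes had 0.03, 0.04, 0.02 and -0.00. The hydrolase and lumenal genes had -0.03, -0.06, -0.00 and 0.09, and the membrane protein genes -0.01, 0.02, 0.04 and 0.10. Adjusted for length and GC content, the pump medians were 0.18, 0.25, 0.31 and 0.38, the hydrolase and lumenal medians 0.056, 0.017, 0.032 and 0.16 and the membrane protein medians 0.058, 0.068, 0.13 and 0.17. The medians below 0 thus turned to above 0. Of the 41 members 13, 13, 9 and 7 changed the side of vehicle they were on with this adjustment at 2, 6, 12 and 24 h. Within the pump, the median at 24 h was 0.19 for the 8 V1 genes, 0.39 for the 7 V0 genes and 0.60 for the 2 accessory genes. Adjusted, these were 0.41, 0.22 and 0.75, so the order of V1 and V0 turned.

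**Figure D3:**
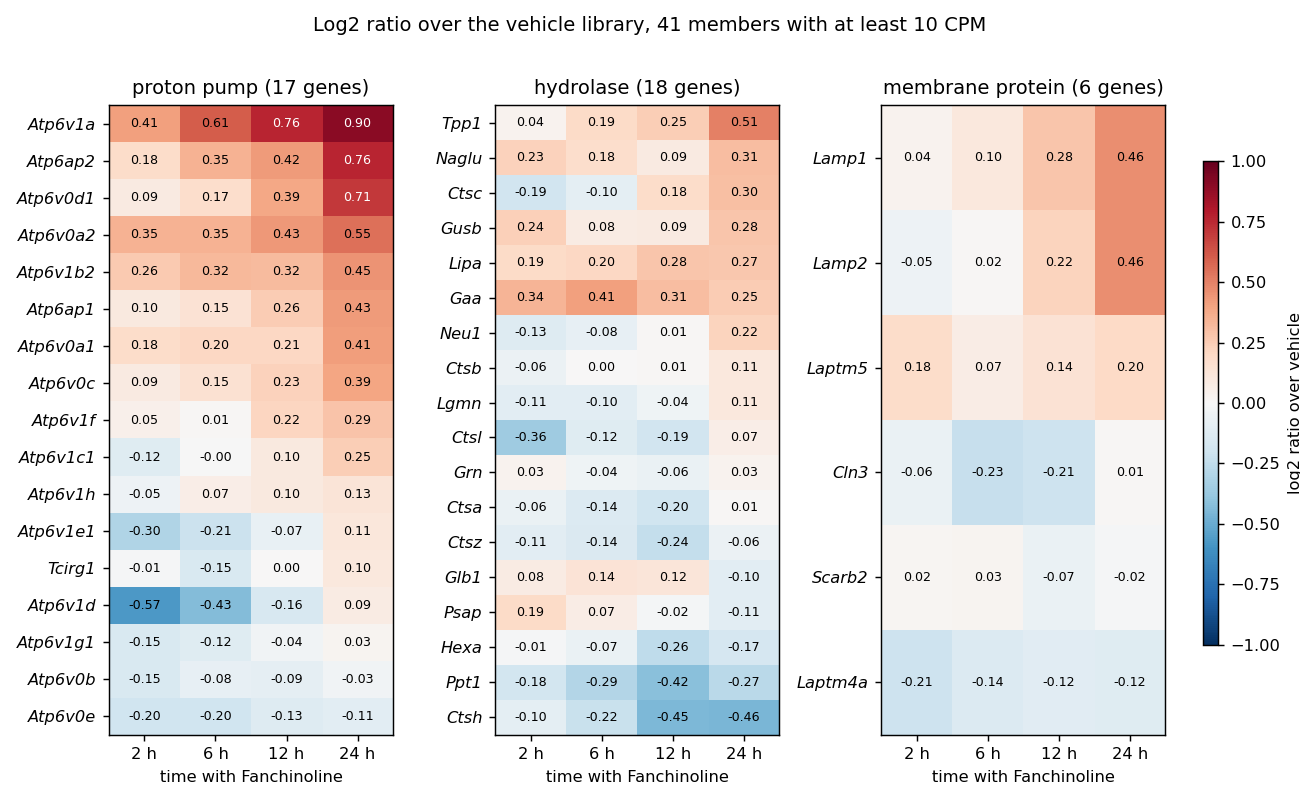
Log2 ratio of each treated library over vehicle for the 41 compared members, by class and ordered by the ratio at 24 h. Red is above and blue below vehicle; Atp6v1a (0.90), Atp6ap2 (0.76) and Atp6v0d1 (0.71) head the pump genes at 24 h, and Ctsh (-0.46) is the lowest of all.

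Among treated libraries alone, which share the compound and differ little in length balance, all 17 pump genes were higher at 24 h than at 2 h with intervals above 0, and their median log2 ratio was 0.24 (0.10 to 0.66). The hydrolase and lumenal genes had a median of 0.06 and the membrane protein genes 0.08. All genes had a median of -0.03 and quartiles of -0.22 and 0.18. Counting intervals are narrow at these counts, and that of Atp6v0e excluded 0 at a log2 ratio of 0.095. The share of all genes with an interval above 0 is not given here. Adjusted for length and GC content, 16 of the 17 pump genes were above 0, 15 of them with their interval, and Atp6v0e was at -0.013; the pump median was 0.28. At 1.5-fold, 2 members were higher at 24 h than at 2 h, Atp6v1d and Atp6v0d1 (3.98% of all genes), and 0 were lower (3.8%); adjusted, only Atp6v0d1 was (2.98%). Of the 17 pump genes 13 were higher at each step from 2 to 6, 12 and 24 h, against 14.7% of all compared genes. Of the 18 hydrolase and lumenal genes 5 did so (Ctsb, Ctsc, Lgmn, Neu1 and Tpp1), and of 6 membrane protein genes 2 (Lamp1 and Lamp2). The 24 h library was the highest of all 5 for 15 pump genes and for 29 of the 41 members (21.8% of all genes). All 4 treated libraries lay above vehicle for 16 of the 41 members (37.6% of all genes). Adjusted, 10 pump genes, 5 hydrolase and lumenal genes (Ctsc, Gaa, Lgmn, Neu1 and Tpp1) and 3 membrane protein genes (Lamp1, Lamp2 and Laptm4a) were higher at each step (10.4% of all genes). The 24 h library was then highest for 28 members (19.8%), and all 4 treated libraries lay above vehicle for 21 (33.2%).

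**Figure D4:**
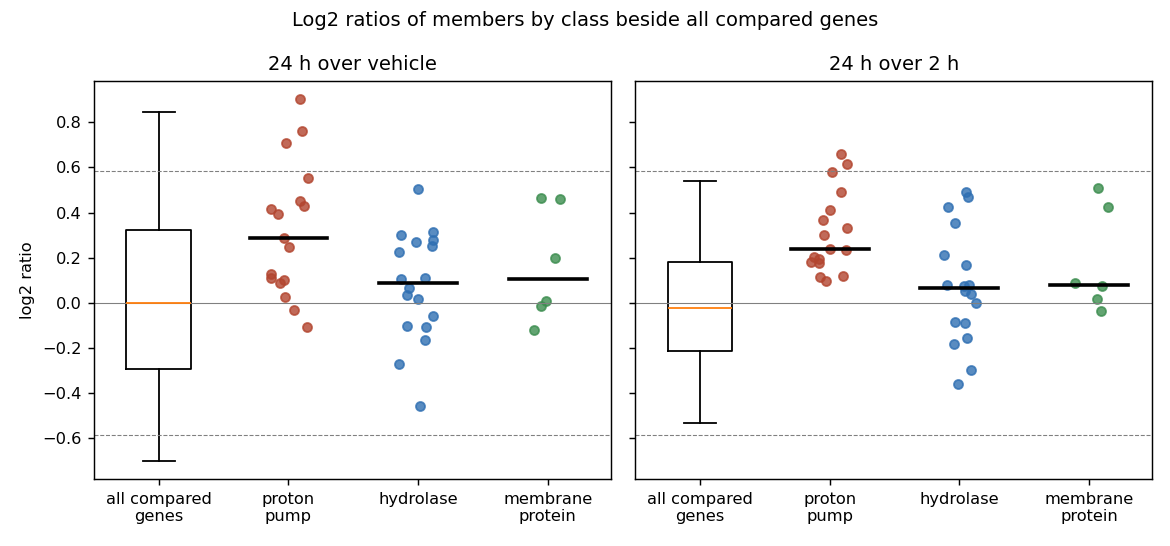
Log2 ratios for 24 h over vehicle (left) and 24 h over 2 h (right); each point is 1 member, black lines are class medians and dashed lines mark 1.5-fold. The box shows the quartiles and median and its whiskers the 5th and 95th percentiles of all 8846 compared genes; all 17 pump genes lie above 0 in the right panel, which is not adjusted for length and GC content (16 when adjusted).

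The only test that 1 library per time point allows is a slope over time, with the scatter around the line as its error. Across the 4 treated libraries, the slope on log2(hours) was tested with edgeR (quasi-likelihood F-test), with Benjamini-Hochberg adjustment over 13764 genes the test called 11 of 43 members rising (6.98% of all genes tested) and 1 falling (6.73%). The rising genes were 6 of 17 pump genes (Atp6v1a, Atp6v1c1, Atp6v1d, Atp6v1e1, Atp6v0d1 and Atp6ap2), 3 of 19 hydrolase and lumenal genes (Ctsc, Neu1 and Tpp1) and 2 of 7 membrane protein genes (Lamp1 and Lamp2). The falling gene was Ctsh, which was not called without the 2 h or without the 12 h library (539 of 13591 and 562 of 13629 genes fell). The number of rising members was 4 without the 24 h library (Atp6v0d1, Atp6v1a, Atp6v1d and Ctsc), where 744 of 13442 genes rose. It was 6 without the 2 h library, where 464 of 13591 genes rose. With genes of low counts left in it was 0, where no gene of 23437 was called and 19 members had an unadjusted p under 0.05. With offsets for length and GC content 9 members rose (4.65% of all genes), 7 of them the same, and Ctsh fell (5.97%). Atp6ap2 (adjusted p = 0.064), Ctsc (0.063), Lamp2 (0.14) and Atp6v1c1 (0.073) were no longer called by edgeR.

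In the same test across all 5 libraries, on log2(hours + 1), 3 members rose (5.35% of 13915 genes) and 1 fell (4.05%): Atp6v1a, Atp6ap2 and Atp6v0d1, and Ctsh. None of the 3 was called without the 12 h library or without the 24 h library, and only Atp6v1a without the 6 h library. Ctsh was lost in the same 3 fits. Among all genes, 0 of 13824 rose without the 12 h library, 25 of 13654 without the 24 h library and 311 of 13716 without the 6 h library. The numbers falling were 0, 3 and 198. With all 5 libraries 745 of 13915 genes rose and 564 fell. With offsets for length and GC content 11 members rose (5.32% of all genes) and 0 fell (5.13%). The 11 were Atp6v1a, Atp6v1b2, Atp6v1c1, Atp6v1f, Atp6v0c, Atp6v0d1, Atp6ap1, Atp6ap2, Lamp1, Lamp2 and Tpp1, and 13 members had an unadjusted p under 0.05 without offsets.

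Members that rose among treated libraries had a lower median GC content (45.2%, 11 genes) than the other tested members (52.0%, 32 genes). Across the 43 members the correlation of GC content with slope was -0.42 (Pearson) and -0.41 (Spearman), against -0.24 and -0.31 across all genes tested. These genes share the same libraries and are no independent points. The part of GC content in these slopes is shown only as far as the offsets above go.

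In the V1 sector, Atp6v1a encodes the catalytic A subunit that splits ATP (chromosome 16, 44085402 to 44139705, GRCm38). It had 44.3 CPM in vehicle and 59.0, 67.5, 75.0 and 82.9 CPM at 2, 6, 12 and 24 h. Each library was higher than the one before. The log2 ratio at 24 h over vehicle was 0.90 (0.81 to 0.99; 0.74 adjusted for length and GC content), and edgeR's slope was 0.14 per doubling of time (SE 0.02, adjusted p = 0.011) among treated libraries and 0.19 (adjusted p = 0.018) over all 5.

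Atp6v1d encodes the D subunit of the central rotor shaft (chromosome 12, 78840725 to 78861638). It had 107 CPM in vehicle and 71.7, 79.2, 95.4 and 113 CPM at 2, 6, 12 and 24 h. The 2 h library was the lowest, with a log2 ratio to vehicle of -0.57, and the 24 h library stood only 0.09 above vehicle. Its log2 ratio of 24 h over 2 h, 0.66 (0.59 to 0.73), was the highest of the 41 compared members; adjusted for length and GC content it was 0.475, below Atp6v0d1 (0.677) and Neu1 (0.485). It had an edgeR slope of 0.19 (SE 0.03, adjusted p = 0.0081).

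Atp6v1e1, a peripheral stalk subunit, followed the same course, with 106 CPM in vehicle and 86.3, 91.6, 101 and 115 CPM at 2, 6, 12 and 24 h. Atp6v1c1, the C subunit that joins the stalks to the membrane sector, had 95.1 CPM in vehicle and 87.5, 95.1, 102 and 113 CPM. Both were below vehicle at 2 h and above it at 24 h, but adjusted for length and GC content the log2 ratio at 2 h was -0.021 for Atp6v1e1 and 0.17 for Atp6v1c1. Among treated libraries their edgeR slopes were 0.12 (SE 0.03, adjusted p = 0.022) and 0.10 (SE 0.02, adjusted p = 0.026). A second stalk subunit gene, Atp6v1g1, lay at 159 CPM in vehicle and at 143, 146, 155 and 162 CPM, and no trend was called (adjusted p = 0.16). The other V1 genes, Atp6v1b2, Atp6v1f and Atp6v1h, had log2 ratios of 0.45, 0.29 and 0.13 at 24 h over vehicle, with no trend called without offsets.

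In the V0 sector, Atp6v0d1 encodes the d subunit that couples the shaft to the ring (chromosome 8, 105524465 to 105566047). It had 203 CPM in vehicle and 216, 229, 265 and 332 CPM at 2, 6, 12 and 24 h, rising from each library to the next. The log2 ratio at 24 h over vehicle was 0.71 (0.67 to 0.75; adjusted for length and GC content 0.90), and the edgeR slope among treated libraries was 0.17 (SE 0.03, adjusted p = 0.015), kept with offsets (adjusted p = 0.010). Atp6v0b had 243 CPM in vehicle and 219, 230, 229 and 238 CPM, and Atp6v0e, a small membrane subunit, 195 CPM and 169, 170, 178 and 181 CPM. Vehicle was the highest library for both, the only 2 pump genes of which this holds. Adjusted for length and GC content, Atp6v0b lay above vehicle at all 4 times (0.054, 0.15, 0.17 and 0.26, log2) and Atp6v0e between -0.030 and -0.011. With library totals alone Atp6v0b was at 0.070 at 24 h. The ring subunit gene Atp6v0c lay at 0.39 (log2) over vehicle at 24 h, and rose only with offsets (adjusted p = 0.035 among treated libraries).

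The a subunit, which forms the proton path, comes in forms encoded by different genes, and 3 were measured as members. Atp6v0a1 had 33.9 CPM in vehicle and 38.4, 39.0, 39.1 and 45.2 CPM at 2, 6, 12 and 24 h. Atp6v0a2 had 107 CPM in vehicle and 137, 137, 145 and 157 CPM. Tcirg1, the a3 form known from osteoclasts, had 116 CPM in vehicle and 116, 105, 116 and 125 CPM. For the first 2 genes vehicle was the lowest library, while for Tcirg1 the 6 h library was. Of the summed level per kilobase of the 3, Tcirg1 made up 57.3% with vehicle and 49.4% to 52.0% with the compound, and Atp6v0a2 30.0% with vehicle and 34.9% to 36.7% with the compound. None of the 3 had a called trend. The log2 ratio at 24 h over vehicle was 0.55 (0.50 to 0.61) for Atp6v0a2, 0.41 for Atp6v0a1 and 0.10 for Tcirg1. The adjusted ratios were 0.19, 0.22 and 0.14, so the 3 genes lay closer together at 24 h. At 2, 6 and 12 h, adjusted, Tcirg1 (-0.14, -0.25 and -0.012) and Atp6v0a1 (-0.058, -0.020 and -0.0037) were below vehicle. Atp6v0a2 was below it at 6 h only (-0.0068).

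Of the accessory genes, Atp6ap2, the prorenin receptor needed for pump assembly (chromosome X, 12587801 to 12617049), had 70.6 CPM in vehicle and 80.3, 90.0, 94.8 and 120 CPM at 2, 6, 12 and 24 h. Each library lay above the one before. Its log2 ratio at 24 h over vehicle was 0.76 (0.69 to 0.83; 0.96 adjusted), with an edgeR slope of 0.15 (SE 0.03, adjusted p = 0.015) among treated libraries. Atp6ap1, the second accessory subunit, lay at 0.43 at 24 h and was called with offsets only (adjusted p = 0.037; 0.051 without, both by edgeR).

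**Figure D5:**
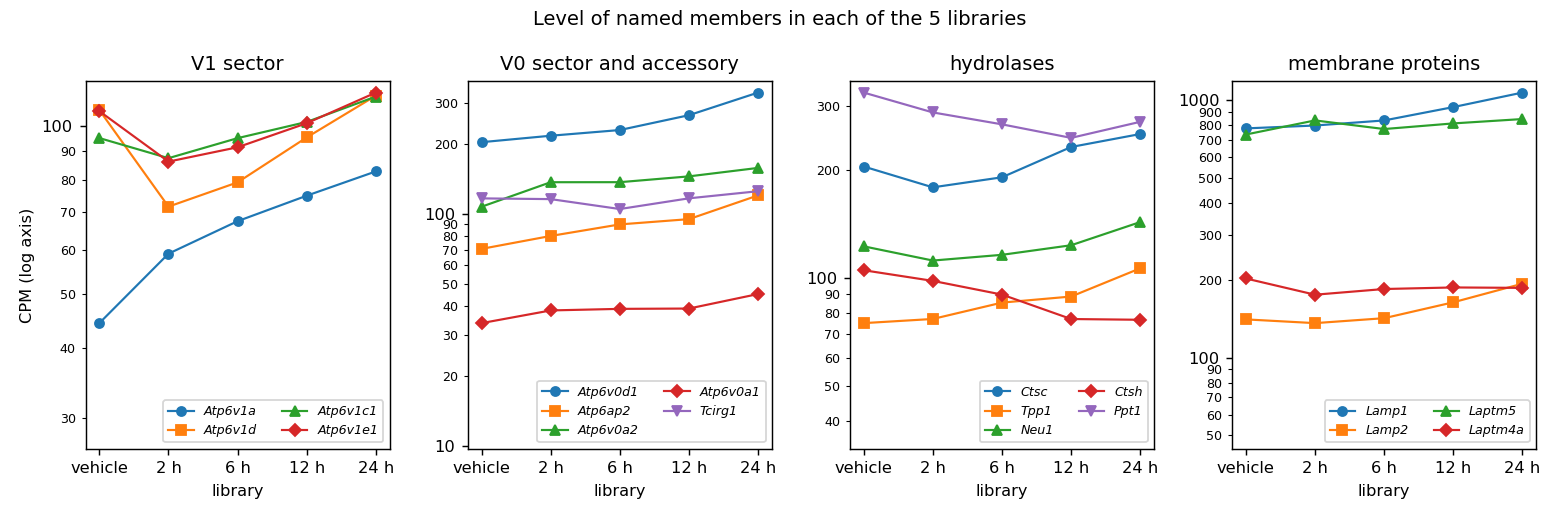
CPM (log axis, with a different range in each panel) of named members in the 5 libraries, 1 library per point and no replicate error to draw. Atp6v1a, Atp6v0d1 and Atp6ap2 climb from vehicle to 24 h, Atp6v1d dips to 71.7 CPM at 2 h, and Ctsh falls from 105 to 76.4 CPM.

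Among the proteases the members moved in different directions. Ctsc, cathepsin C, an aminopeptidase that activates serine proteases (chromosome 7, 88278085 to 88310888), had 204 CPM in vehicle and 178, 190, 231 and 251 CPM at 2, 6, 12 and 24 h. Tpp1, a tripeptidyl peptidase, had 74.8 CPM in vehicle and 76.8, 85.3, 88.7 and 106 CPM. Both were higher at each treated step, Ctsc from a 2 h library below vehicle (log2 ratio -0.19; 0.067 adjusted for length and GC content). Their edgeR slopes among treated libraries were 0.15 (SE 0.03, adjusted p = 0.014) and 0.13 (SE 0.03, adjusted p = 0.020).

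Ctsh, cathepsin H, an aminopeptidase of the cysteine protease family (chromosome 9, 90054152 to 90076089), went the other way, with 105 CPM in vehicle and 98.1, 89.8, 76.8 and 76.4 CPM at 2, 6, 12 and 24 h. Vehicle was the highest library (adjusted for length and GC content, 2 h lay 0.076 above it on the log2 scale), and the 12 and 24 h libraries were close together at the bottom. The log2 ratio at 24 h over vehicle was -0.46 (-0.53 to -0.39; -0.25 adjusted for length and GC content), and edgeR's slope among treated libraries was -0.11 (SE 0.03, adjusted p = 0.027).

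Cathepsin B and cathepsin L, the endopeptidases, showed no called trend. Ctsb had 449 CPM in vehicle and 431, 449, 453 and 484 CPM at 2, 6, 12 and 24 h, and Ctsl 22.4 CPM and 17.4, 20.6, 19.6 and 23.4 CPM. For both, 24 h was the highest and 2 h the lowest library. After the adjustment for length and GC content, both were below vehicle at all 4 times (at 24 h by a log2 ratio of -0.17 for Ctsb and -0.33 for Ctsl). For Ctsl the adjustment took the length of its longest protein-coding transcript, 6168 bases. Ctsl overlaps Gm49230 on its own strand, and Ctsb overlaps Fdft1 on the other, which a kit that does not mark strand cannot separate. Other members also overlap a gene on the opposite strand, among them Ctsa, Ctsz, Hexa and Grn. So do Lamp1 (Grtp1) and Atp6v1e1 (Slc25a18), which were called rising. The other protease genes, Ctsa, Ctsz and Lgmn, lay between -0.24 and 0.11 (log2) over vehicle at all 4 times (-0.35 to 0.25 adjusted).

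Of the glycosidases, only Neu1, the sialidase, was called rising. It had 122 CPM in vehicle and 112, 116, 123 and 143 CPM at 2, 6, 12 and 24 h, below vehicle at first and highest at 24 h. Its edgeR slope among treated libraries was 0.10 (SE 0.03, adjusted p = 0.048; 0.019 with offsets). Naglu, which cleaves heparan sulfate, had 30.3 CPM in vehicle and 35.7, 34.3, 32.4 and 37.7 CPM, and Gusb, beta-glucuronidase, had 208 CPM and 246, 220, 222 and 252 CPM. Both were above vehicle in all 4 treated libraries, with no order among these. Hexa, the alpha subunit of beta-hexosaminidase, had 451 CPM in vehicle and 448, 430, 377 and 402 CPM, with vehicle the highest (adjusted, 2 and 6 h lay 0.044 and 0.014 above it on the log2 scale).

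Gaa, the acid alpha-glucosidase gene, lay at 0.25 to 0.41 (log2) over vehicle, highest at 6 h. Adjusted for length and GC content it lay at 0.12 to 0.21, and 6 h was no longer the highest. Glb1, beta-galactosidase, lay at -0.10 to 0.14, but shares exon positions on the same strand with Tmppe, which had 5.22 CPM with vehicle and 15.9 to 17.6 CPM with the compound. The sum of the 2 entries was 63.8 CPM in vehicle and 77.8, 81.1, 79.9 and 72.2 CPM at 2, 6, 12 and 24 h. The sum was thus above vehicle at 24 h (72.2 against 63.8 CPM), while the entry of Glb1 was below it (54.6 against 58.6 CPM).

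Of the genes for lipid breakdown, Ppt1, the palmitoyl-protein thioesterase, had 327 CPM in vehicle and 288, 267, 245 and 272 CPM at 2, 6, 12 and 24 h. Vehicle was the highest library and 12 h the lowest, and no trend was called. In the adjusted ratios, 2 h lay 0.067 above vehicle (log2). Its exons overlap those of Cap1 on the opposite strand. Lipa, the acid lipase, lay at 0.19 to 0.28 (log2) over vehicle. Psap stood at 8787 CPM in vehicle and at 10044, 9254, 8673 and 8163 CPM, highest at 2 h and lowest at 24 h, with no trend called by edgeR (adjusted p = 0.11 among treated libraries). Grn lay within 1052 to 1125 CPM throughout.

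Among membrane proteins the called genes were the LAMP pair. Lamp1 (chromosome 8, 13159161 to 13175338) had 778 CPM in vehicle and 798, 835, 942 and 1072 CPM at 2, 6, 12 and 24 h. Lamp2, its paralog with a part in autophagy (chromosome X, 38401357 to 38456454), had 141 CPM in vehicle and 136, 142, 164 and 194 CPM. Both had a log2 ratio of 0.46 at 24 h over vehicle, and both were higher at each treated step. Among treated libraries edgeR's slopes were 0.12 for Lamp1 (SE 0.03, adjusted p = 0.031) and 0.14 for Lamp2 (SE 0.03, adjusted p = 0.018). With offsets Lamp1 was kept (adjusted p = 0.023) and Lamp2 was not. Whether the pair differed from the rest of the class was not tested.

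Laptm5, a membrane protein of blood cells that targets receptors to lysosomes, had 737 CPM in vehicle and 836, 774, 814 and 846 CPM at 2, 6, 12 and 24 h. Laptm4a, a related protein, had 203 CPM in vehicle and 176, 185, 187 and 187 CPM. The first was above and the second below vehicle in all 4 treated libraries, but adjusted for length and GC content Laptm4a was above vehicle at all 4 times (0.0068 to 0.083, log2). Scarb2, the receptor that carries glucocerebrosidase to lysosomes, had 92.6 CPM in vehicle and 93.9, 94.4, 88.4 and 91.6 CPM. Cln3, a membrane protein lost in Batten disease, had 65.4 CPM and 62.6, 55.9, 56.7 and 65.8 CPM, lowest at 6 h, and shares exon positions with Apobr on the opposite strand. None of these 4 had a called trend.

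Of the members matched to a promoter window, 3 of the 12 compared genes with an E-box rose among treated libraries, and 7 of the 22 without (6.98% of all genes tested). With offsets for length and GC content these were 3 and 6 (4.65%). The median log2 ratio at 24 h over vehicle was 0.09 for the 12 compared genes with an E-box and 0.21 for the 22 without (0.23 and 0.29 adjusted for length and GC content). Among the 12 were both Atp6v1a (0.90) and Atp6v0e (-0.11), whose E-boxes are shown above. Neither the difference in these counts nor that between the 2 medians was tested.

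Lists of other genes of the organelle, which hold no member, had calls in both directions. Of 40 other hydrolase and lumenal genes tested, 3 rose among treated libraries by edgeR (Asah1, Npc2 and Scpep1) and 3 fell (Arsb, Naaa and Plbd1). Of 32 other membrane protein genes 3 rose (Cd164, Ostm1 and Tmem106b) and 4 fell (Abca2, Abcd4, Cd68 and Hgsnat), of 10 genes for enzyme sorting 0 rose and 2 fell (Gga1 and Nagpa), and of 7 genes of the MiT factors (TFEB, TFE3 and MITF) and folliculin 2 rose (Flcn and Fnip1) and 1 fell (Tfe3). Of 7 further pump and assembly genes tested 2 rose, Wdr7 and Dmxl1, which encode partners of the pump's assembly factor. Among all genes tested 6.98% rose and 6.73% fell. With offsets for length and GC content the counts were 3 rising and 2 falling hydrolase and lumenal genes, 0 and 3 membrane protein genes, 0 and 0 sorting genes, 1 (Flcn) and 0 genes of the MiT and folliculin list, and 1 (Wdr7) and 0 pump genes, against 4.65% and 5.97% of all genes.

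Wdr7 had 14.6 CPM in vehicle and 28.3, 32.8, 38.4 and 45.9 CPM at 2, 6, 12 and 24 h, each library above the one before. Dmxl1 had 18.1 CPM in vehicle and 26.8, 31.4, 30.4 and 40.4 CPM. Their log2 ratios at 24 h, 1.65 and 1.15, were larger than that of any member, and were 1.16 and 0.56 adjusted for length and GC content. Rogdi, of the same complex, was lower than vehicle at 24 h, with a log2 ratio of -0.53 (-0.25 adjusted).

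The ratios largest in size at 24 h over vehicle, before adjustment, in the other lists were 0.74 for Dpp7, 0.60 for Ids and 0.52 for Manba among hydrolases (0.92, 0.35 and 0.43 adjusted for length and GC content). Among membrane proteins they were 0.81 for the chloride-proton exchanger Clcn7, 0.80 for the cholesterol exporter Npc1 and -0.80 for Cd68, a macrophage-associated sialomucin (0.58, 0.46 and -0.54 adjusted). Adjusted, Clcn7 and Npc1 were below 1.5-fold, and Slc15a3 (0.86), Ctns (0.85), Mfsd1 (0.75) and Atp13a2 (0.66) headed that list; these 4 were named after their values were seen. Cd68 had 190 CPM in vehicle and 171, 139, 113 and 109 CPM at 2, 6, 12 and 24 h, and was the most negative ratio of its list. In the sorting list they were 0.96 for Gga2, 0.52 for Gnptab and -0.29 for Gga1 (0.64, 0.18 and -0.13 adjusted), and in the list of MiT factors and folliculin 1.71 for Fnip1, 1.69 for Flcn and 0.80 for Fnip2 (1.37, 1.60 and 0.29 adjusted).

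Markers of the line moved over the same hours. Of the 12 cDC1 markers tested, 6 fell among treated libraries (Batf3, Cd8a, Flt3, Irf8, Wdfy4 and Zbtb46) and 0 rose by edgeR. Slopes were above 0 for 4 of the 12, and Cadm1 was higher at each treated step. Of 5 macrophage markers tested 2 fell (C1qa and C1qc). Among all genes tested 6.73% fell and 6.98% rose. With offsets for length and GC content 5 of the 6 falling cDC1 markers (all but Batf3) and 0 macrophage markers fell, against 5.97% of all genes. Csf1r, of the macrophage list, passed the 1.5-fold rule at 24 h over vehicle (log2 ratio 0.93, adjusted 0.62). It had 72.3 CPM in vehicle and 101, 80.8, 100 and 137 CPM at 2, 6, 12 and 24 h. The list's summed level was highest at 24 h (187 CPM), and most of that sum was Csf1r. Of the 4 compared markers of the list, 3 were highest in vehicle and 1 at 24 h. The part of this shift in the results above was not tested.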

How the data were processed

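Poly-A RNA was sequenced from MutuDC cells with an unstranded TruSeq kit, per the labels' protocols. The authors deposited raw counts per gene in 1 column for each of 5 libraries. Reads were trimmed and aligned with tools that the submitters' processing notes give as Trim Galore and HISAT2, on the build GRCm38. No source used here names the counting program or its annotation. Intervals take 1 count as 1 read; if counts came from coverage, they would not hold as stated.

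Counts were scaled with TMM factors from edgeR 4.0.16 (0.977 to 1.05) in R 4.3.3. The 8846 genes that reached 10 CPM in any library were compared, where 10 CPM is 328 to 427 counts. Libraries were compared in pairs by size and counting interval, with no p-value. Slopes over time were tested with edgeR's quasi-likelihood test (filterByExpr, 2 or 3 residual degrees of freedom, adjusted p threshold 0.05), which borrows spread across genes, and p-values measure scatter around a line, not between replicates. Test and adjustment were tested on simulated data. Alternatives were DESeq2 1.42.0 size factors and its Wald test, library totals, other filters and prior counts, linear hours, each library left out, and length and GC adjustment of ratios. Length and GC offsets in the trend tests were chosen after seeing the data. Positions, lengths and overlaps came from GENCODE vM21 on GRCm38, using the longest protein-coding transcript.

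Members and lists were chosen with earlier results of these data known. All members are accounted for; values in 5 libraries are printed for members past 1.5-fold or a trend threshold, for the 4 highest and 3 lowest by 24 h ratio in each class, for the a subunits, and for Lamp1, Lamp2, Ctsd, Ctsl and Ctsb, and ratios for up to 3 genes of each other lysosome list. Genes named beyond this only make up a count or an overlap.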

Additional observations from a re-analysis of the deposited data

How the results depend on the processing

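No paired analysis was possible because each group has 1 library. Results that had passed a threshold kept their direction under the alternatives run. Values near 0 did not: adjusted for length and GC content, 13, 13, 9 and 7 of 41 members changed sign at 2, 6, 12 and 24 h over vehicle, against 0 to 2 with DESeq2 size factors and 1 to 3 with library totals, and the medians of hydrolases (2, 6 and 12 h) and membrane protein genes (2 h) turned from below to above 0, as did that of hydrolases for 12 h over 6 h. Of the values of single members under an alternative, 932 stayed on their side of the threshold, 37 newly passed it and 53 no longer did. Leaving out each library in turn gave 0 to 13 members rising and 0 to 1 falling over all 5 libraries. Among all genes these fits called 0 to 1217 rising and 0 to 1078 falling, of 13654 to 13824 tested. Among treated libraries 4 to 12 members rose and 0 to 1 fell. There 464 to 1314 of all genes rose and 539 to 1214 fell, of 13442 to 13629 tested. With no filter on low counts 0 members rose or fell in either trend test (0 of 24170 and 0 of 23437 genes called by edgeR; 13 and 19 members with an unadjusted p under 0.05). With linear hours the counts over 5 libraries were 0 rising and 0 falling (0 of 13915 genes called, 15 members with an unadjusted p under 0.05). Among treated libraries 13 members rose (647 of 13764 genes) and 0 fell (814) with linear hours. DESeq2's Wald test gave 9 rising over 5 libraries (1325 of 13915 genes). Among treated ones it gave 13 rising (931 of 13764) and 2 falling (1059). Offsets for length and GC content gave 11 rising (738 of 13868 genes) and 0 falling (712) over 5 libraries. The cause was not tested in these cases.

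Library totals alone, which moved the median of all genes at 24 h over vehicle by 0.10 (log2), gave 1 member 2-fold higher and 5 members 1.5-fold higher at 24 h, and 4 from 2 to 24 h. No share of all genes is given here for these counts, so whether members exceeded other genes cannot be read from them. The medians for pump, hydrolase and membrane protein genes were then 0.39, 0.19 and 0.21 at 24 h over vehicle. They were 0.22, 0.21 and 0.20 for 24 h over 12 h. Between 24 h and 2 h they were 0.32, 0.14 and 0.16. Adjusted for length and GC content, 1 member was 1.5-fold higher at 2 h (1.9% of all genes), 2 at 12 h (4.23%), 5 at 24 h (5.3%) and 1 from 2 to 24 h (2.98%). Adjusted medians were 0.18, 0.25, 0.31 and 0.38 for the pump at 2, 6, 12 and 24 h over vehicle. They were 0.056, 0.017 and 0.16 for hydrolases at 2, 6 and 24 h, 0.013 from 6 to 12 h and 0.12 from 2 to 24 h. For membrane protein genes they were 0.058, 0.13 and 0.17 at 2, 12 and 24 h. A filter of 1 CPM, which adds Mfsd8 and Ctsd, moved the membrane protein medians to 0.14 at 12 h, 0.20 at 24 h and 0.18 for 24 h over 12 h. Ctsd, Cd63 and Galc had at most 97, 6 and 0 counts per library, and the cause of these low counts was not tested.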
